A study of Arabidopsis thaliana with 6 samples.

Results

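The aliphatic glucosinolate pathway was followed through 10 genes in whole *Arabidopsis thaliana* seedlings treated with the bacterium *Priestia megaterium* YC4-R4. The 10 genes were taken by name, as 2 regulators (*MYB28* and *MYB29*) and 8 enzyme genes (*MAM1*, *MAM3*, *CYP79F1*, *CYP79F2*, *CYP83A1*, *FMOGS-OX1*, *FMOGS-OX3* and *AOP2*). All 10 were in the deposited table of 19616 genes, and all 10 passed the filter on low counts, which left 19615 genes to be tested. The treated group had 3 RNA-Seq libraries of seedlings inoculated with YC4-R4 suspended in 0.45% NaCl. The mock group had 3 libraries of seedlings given the same saline without bacteria. Every library came from wild type Col-0 plants moved from plates to a soil mix with vermiculite, collected 13 days after germination and 7 days after treatment (DAT), and ground whole, so root and shoot were mixed. The labels do not say how many seedlings made up a library or whether the libraries of a group came from separate growth batches, so the p-values measure the spread between these libraries only.

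Glucosinolates are sulfur-rich thioglucosides that plants of the cabbage order store as chemical defences, and myrosinases split them into isothiocyanates and nitriles when tissue is damaged. The aliphatic ones are made from methionine. The amino acid is first lengthened in the plastid by methylthioalkylmalate synthases (MAM1 and MAM3), and cytochromes P450 (CYP79F1, CYP79F2 and CYP83A1) then begin the core structure. Conjugation, cleavage, glucosylation and sulfation complete that core. Finally the side chain is oxidized by flavin monooxygenases (FMOGS-OX) and, in ecotypes with a working copy, converted to an alkenyl form by AOP2. MYB28 and MYB29 are R2R3-MYB transcription factors that switch the whole set on, together with bHLH partners of the MYC family.

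Of the 10 genes, 9 had higher values in every treated library than in any mock library, and *MAM3* had lower ones in every treated library. *AOP2*, *FMOGS-OX3* and *FMOGS-OX1*, genes assigned to the last steps on the side chain, were called higher. Of these, *AOP2* is annotated as a transcribed pseudogene in Col-0, and *FMOGS-OX1* was at the fold limit (1.508). A gene was called where edgeR's quasi-likelihood test gave an adjusted p (Benjamini-Hochberg) no larger than 0.05 and the fold was 1.5 or more. Over all genes tested, 1.73% were called higher and 1.54% lower by these limits. None of the 10 was called lower by edgeR, nor by DESeq2 or limma, and *MAM3* was the single one lower at an unadjusted p under 0.05. With the adjusted p alone, 7 of the 10 were higher and 0 lower, against 5.1% of all genes tested that were higher and 4.52% that were lower. Libraries without overlap between the groups, treated above mock, were found for 14.5% of all genes, and treated below mock for 13.8%. At an unadjusted p under 0.05 in edgeR, 2369 of the 19615 genes tested were higher and 2202 lower. A positive log2 fold change was found for 48.9% of all genes tested. The median log2 fold change of the 10 genes was 0.39, and that of all genes was -0.0049. The 10 genes were chosen with earlier results of these data known. Setting them beside all genes is thus a description and not a test of the set. Because the tissue was bulk, more cells of a type that expresses a gene and more RNA per cell cannot be told apart.

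Together the 10 genes took 0.13%, 0.133% and 0.125% of the counts in the treated libraries, and 0.101%, 0.106% and 0.11% in the mock libraries. These shares did not overlap between the groups. The depth ranged from 15292377 to 21904205 counts in the treated libraries and from 10804936 to 20040520 in the mock libraries, and the smallest count of any of the 10 genes in a library was 233 (*AOP2*, mock 1). Values are given as CPM, which are read counts scaled to a common library total with TMM factors. The factors lay between 0.9706 and 1.0182.

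**Figure D1:**
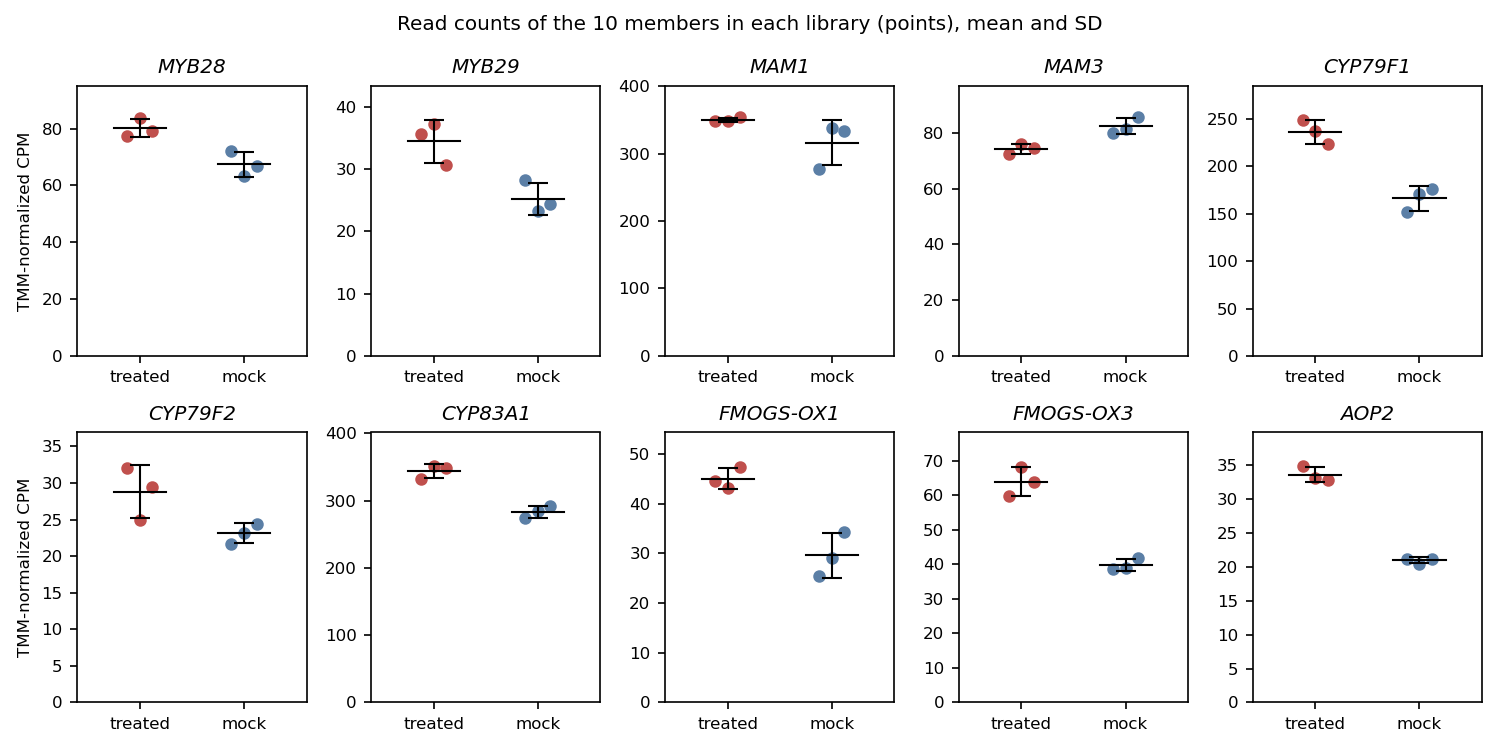
Read counts (TMM-normalized CPM, linear axes from 0) of the 10 genes, with 1 point per library, treated in red on the left and mock in blue on the right; the long bar is the mean and the whiskers are the SD (n = 3 each). The treated points lie above the mock points in 9 panels and below them in the *MAM3* panel, and the called genes average 45.0 and 29.6 CPM (*FMOGS-OX1*), 64.0 and 39.8 CPM (*FMOGS-OX3*) and 33.7 and 21.0 CPM (*AOP2*) in treated and mock libraries.

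Sequences upstream of the genes are given first for the members that hold a letter match to the G-box or an AC element, described next. The 250 bases before the annotated start were read from the TAIR10.1 genome for each of the 10 genes and searched on both strands for the G-box CACGTG, which MYC factors bind, for the AC elements ACCTACC (AC-I), ACCAACC (AC-II) and ACCTAAC (AC-III), which MYB factors can bind, and for the evening element AAAATATCT of the circadian clock. In 27443 promoters of protein-coding genes the G-box occurred in 6.49%, AC-I in 1.16%, AC-II in 2.69%, AC-III in 2.46% and the evening element in 2.36%. Among the 10 genes, AC-I matched in 2, AC-III in 1, the G-box in 1, and the AC-II and evening elements in none. Any of the AC elements was present in 3 of the 10, and in 6.12% of all promoters. The windows with a match follow, 5′ to 3′ on the strand of the gene, with the matched letters in capitals.
*CYP79F2* promoter (chr1:5604794-5605043, plus strand), with AC-I on the strand of the gene 104 to 98 bases before the start: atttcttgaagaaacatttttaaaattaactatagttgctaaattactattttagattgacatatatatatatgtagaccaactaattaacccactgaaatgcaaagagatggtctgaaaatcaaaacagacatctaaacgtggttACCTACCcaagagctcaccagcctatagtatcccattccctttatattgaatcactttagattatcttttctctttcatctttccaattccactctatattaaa
*CYP83A1* promoter (chr4:7992430-7992679, minus strand), with AC-I on the opposite strand 71 to 65 bases before the start and the G-box 43 to 38 bases before it: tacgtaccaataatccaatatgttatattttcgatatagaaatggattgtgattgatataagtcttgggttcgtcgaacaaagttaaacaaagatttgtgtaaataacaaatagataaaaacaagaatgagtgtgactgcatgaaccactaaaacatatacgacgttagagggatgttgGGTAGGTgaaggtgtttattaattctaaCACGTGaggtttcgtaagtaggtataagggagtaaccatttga
*FMOGS-OX1* promoter (chr1:24502777-24503026, minus strand), with AC-III on the opposite strand 71 to 65 bases before the start: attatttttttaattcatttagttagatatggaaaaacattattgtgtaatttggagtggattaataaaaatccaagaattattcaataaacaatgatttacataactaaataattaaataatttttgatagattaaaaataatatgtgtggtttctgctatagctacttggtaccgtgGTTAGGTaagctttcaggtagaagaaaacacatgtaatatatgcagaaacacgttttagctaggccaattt
The windows of *MYB28*, *MYB29*, *MAM1*, *MAM3*, *CYP79F1*, *FMOGS-OX3* and *AOP2* held none of these letters. A match is a description of the sequence only, and binding by MYB28, MYB29 or a MYC factor was not tested.

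The regulators were slightly higher after treatment. *MYB28* (AT5G61420, TAIR10.1 chromosome 5, 24689069 to 24691187, minus strand), which encodes the main activator of the aliphatic pathway, had 77.4, 83.8 and 79.2 CPM in the treated libraries and 72.1, 63.2 and 66.9 CPM in the mock libraries. The groups did not overlap, but treated 1 and mock 1 lay only 5.33 CPM apart. Treated over mock, the log2 fold change was 0.25 (SE 0.07, 95% confidence interval 0.09 to 0.41), with an adjusted p of 0.0493 in edgeR. This gene stands at the edge of the limit, since it kept an adjusted p of at most 0.05 in 7 of the 17 alternative settings that use the same limits, and leaving out single libraries gave adjusted p-values from 0.0313 to 0.192. *MYB29* (AT5G07690, chromosome 5, 2446669 to 2448584, plus strand), its partly redundant relative, had 35.7, 37.2 and 30.6 CPM in the treated libraries and 28.2, 23.2 and 24.3 CPM in the mock libraries. The lowest treated library (treated 3) and the highest mock library (mock 1) were again close. Its log2 fold change of 0.45 (SE 0.098, interval 0.24 to 0.67) had an adjusted p of 0.0127 in edgeR, and the fold of 1.37 stayed under the limit of 1.5. Passing the adjusted p was kept in 14 of the 17 settings.

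*MYB76*, the third MYB of this clade, lies 1442 bp from *MYB29* and was counted less often. It had 3.86, 3.73 and 2.93 CPM in the treated libraries and 3.19, 2.39 and 1.998 CPM in the mock libraries. Here the groups overlapped, and the log2 fold change of 0.52 (interval 0.06 to 0.98) had an adjusted p of 0.162. In contrast with the MYB genes, the bHLH partner gene *MYC2*, which is also the main jasmonate response factor, was lower after treatment. It had 86.0, 97.8 and 93.0 CPM in the treated libraries and 128.7, 127.9 and 135.7 CPM in the mock libraries. Every treated library thus lay below every mock library, with a log2 fold change of -0.50 and an adjusted p of 0.000905 in edgeR, but the fold was short of the limit. The related *MYC4* had a log2 fold change of 0.26 with an adjusted p of 0.098.

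Sulfur status also acts on this pathway, through EIL3 (SLIM1) and the SDI proteins, which repress it when sulfur is short. *EIL3* had a log2 fold change of -0.01 (interval -0.20 to 0.17), and *SDI1* one of 0.28 (interval -0.06 to 0.61) (adjusted p of 0.947 and 0.318). AT1G04770, listed here beside *SDI1* among the sulfur-linked genes, is annotated as a tetratricopeptide-repeat protein. It had 17.5, 20.1 and 17.4 CPM in the treated libraries and 14.8, 11.9 and 12.6 CPM in the mock libraries. Its log2 fold change was 0.49 with an adjusted p of 0.0136 in edgeR. Of the 8 regulators and sulfur-linked genes other than *MYB28* and *MYB29*, none was called in either direction by edgeR, DESeq2 or limma. With the adjusted p alone 1 was higher (AT1G04770) and 1 lower (*MYC2*), and at an unadjusted p under 0.05 in edgeR 4 were higher and 1 was lower.

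Chain elongation was the step where the 10 genes differed least between the groups, and in opposite directions. *MAM1* (AT5G23010, chromosome 5, 7703041 to 7706973, plus strand), which performs the early elongation rounds that give short-chain glucosinolates, had 348.8, 348.7 and 353.6 CPM in the treated libraries and 277.5, 338.5 and 333.2 CPM in the mock libraries. The treated libraries were close together and just above the mock ones, of which mock 1 was low. A log2 fold change of 0.15 (SE 0.084, interval -0.04 to 0.33) had an adjusted p of 0.334. *MAM3* (AT5G23020, chromosome 5, 7718118 to 7721866, plus strand), which can carry elongation on to long chains, had 72.4, 75.9 and 74.6 CPM in the treated libraries and 80.1, 81.4 and 85.8 CPM in the mock libraries. All treated values were thus below all mock values. With a log2 fold change of -0.15 (SE 0.065, interval -0.29 to -0.01) the adjusted p was 0.182, and the sign stayed negative in all 20 alternative settings. The MAM genes are tandem neighbours 11144 bp apart, with coding sequences identical at 83.8% of aligned bases and no shared run longer than 30 bases.

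Within a library the ratio of *MAM3* to *MAM1* counts does not depend on the scaling. It was 0.208, 0.218 and 0.211 in the treated libraries and 0.289, 0.240 and 0.257 in the mock libraries. The ratio was therefore lower in every treated library, with a mean difference of -0.302 on the log2 scale and an exact two-sided permutation p of 0.1, the smallest that 3 against 3 libraries allow. Mock 1, where *MAM1* was low, had the highest ratio.

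Other genes of the elongation cycle had small differences of one sign. All 8 listed partners had a positive log2 fold change (median 0.18). None was called by edgeR, DESeq2 or limma, 3 had an unadjusted p under 0.05 in edgeR, and 2 had an adjusted p of at most 0.05. *BAT5*, a plastid transporter of the keto acid intermediates, had 63.7, 61.9 and 61.3 CPM in the treated libraries and 52.6, 50.9 and 51.0 CPM in the mock libraries (log2 fold change 0.28, adjusted p 0.0176). *IPMI1*, a subunit of the isomerase of the cycle, had 55.9, 47.7 and 54.9 CPM in the treated libraries and 31.5, 42.4 and 42.5 CPM in the mock libraries (0.44, adjusted p 0.0257). In neither gene did the groups overlap. *BCAT3*, an aminotransferase at the end of the cycle, had a log2 fold change of 0.20 with an adjusted p of 0.125.

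The core structure begins with CYP79F1, which turns elongated methionine of all chain lengths into aldoximes. *CYP79F1* (AT1G16410, chromosome 1, 5608682 to 5612064, plus strand) had 249.1, 237.3 and 223.4 CPM in the treated libraries and 151.7, 170.9 and 176.1 CPM in the mock libraries. The lowest treated library was 47.3 CPM above the highest mock library. Its log2 fold change of 0.51 (SE 0.079, interval 0.34 to 0.68) had an adjusted p of 0.00168 in edgeR, and it stayed at or under 0.05 in all 17 alternative settings with the same limits. The fold of 1.42 left it below the limit of 1.5. When the test itself asked for a fold above 1.2, with no further fold limit, the adjusted p was 0.0377.

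*CYP79F2* (AT1G16400, chromosome 1, 5605044 to 5607498, plus strand), whose enzyme takes only long-chain substrates, had far fewer counts. It had 32.1, 24.98 and 29.4 CPM in the treated libraries and 21.7, 23.2 and 24.4 CPM in the mock libraries. Treated 2 lay only just above mock 3. A log2 fold change of 0.32 (SE 0.099, interval 0.10 to 0.54) had an adjusted p of 0.0679, and the ratio of *CYP79F2* to *CYP79F1* counts was 0.129, 0.105 and 0.132 in the treated libraries and 0.143, 0.136 and 0.139 in the mock libraries. That ratio was lower in every treated library (exact two-sided permutation p of 0.1, the smallest possible). The gene pair lies in tandem with 1183 bp between the copies, and their coding sequences are identical at 91.9% of aligned bases with a longest shared run of 100 bases. Reads from such stretches fit both copies and the sources used here do not give how they were counted, so the split between the pair is uncertain. None of the 10 genes overlaps another annotated gene on either strand.

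*CYP83A1* (AT4G13770, chromosome 4, 7990429 to 7992429, minus strand) oxidizes the aldoximes and is among the most abundant genes of the set. It had 332.5, 351.8 and 347.9 CPM in the treated libraries and 273.7, 284.3 and 292.2 CPM in the mock libraries. The groups were 40.3 CPM apart at their nearest libraries. This gave a log2 fold change of 0.28 (SE 0.069, interval 0.13 to 0.43) and an adjusted p of 0.0242 in edgeR. It passed the adjusted p in 11 of the 17 settings with the same limits, and leaving out single libraries gave adjusted p-values of 0.046 to 0.088.

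The remaining core enzymes all had positive log2 fold changes, with a median of 0.30 over 7 genes. None was called by edgeR, DESeq2 or limma, 6 had an unadjusted p under 0.05 in edgeR, and 5 had an adjusted p of at most 0.05. AT2G31790, annotated as a UDP-glycosyltransferase superfamily protein, had 113.9, 112.5 and 116.4 CPM in the treated libraries and 80.3, 83.2 and 82.8 CPM in the mock libraries, a log2 fold change of 0.48 with an adjusted p of 0.000565 in edgeR. *GSTF11*, a glutathione S-transferase, had 19.9, 20.4 and 19.95 CPM in the treated libraries and 14.7, 14.4 and 16.4 CPM in the mock libraries (0.39, adjusted p 0.0156). *SOT18*, a sulfotransferase that completes aliphatic glucosinolates, had 75.7, 93.6 and 84.4 CPM in the treated libraries and 69.9, 59.6 and 67.3 CPM in the mock libraries (0.36, adjusted p 0.0251). For all 3 genes the treated libraries stood above the mock libraries.

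Genes of side-chain modification were those of the 10 that passed both limits. *FMOGS-OX1* (AT1G65860, chromosome 1, 24498954 to 24502776, minus strand), which oxidizes methylthioalkyl to methylsulfinylalkyl glucosinolates, had 44.5, 43.2 and 47.4 CPM in the treated libraries and 25.4, 29.0 and 34.4 CPM in the mock libraries. Mock 3 stood nearest to the treated libraries. The gene rose with a log2 fold change of 0.59 (SE 0.0997, interval 0.37 to 0.81) and an adjusted p of 0.00285 in edgeR. Its fold of 1.508 was at the limit, and it was no longer called without treated 3 (log2 fold change 0.55), without mock 1 (0.50) or without mock 2 (0.57), while its adjusted p stayed at or under 0.05 in all 17 settings.

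*FMOGS-OX3* (AT1G62560, chromosome 1, 23159734 to 23162881, plus strand) catalyses the same oxidation. It had 59.7, 68.3 and 63.9 CPM in the treated libraries and 38.7, 38.8 and 41.8 CPM in the mock libraries. The nearest treated and mock libraries were 18 CPM apart. The log2 fold change was 0.68 (SE 0.075, interval 0.52 to 0.84), the fold was 1.603 and the adjusted p was 0.000167 in edgeR, and it was called in all 17 settings. The ratio of *FMOGS-OX3* to *FMOGS-OX1* counts overlapped between the groups, at 1.34, 1.58 and 1.35 in the treated libraries and 1.52, 1.34 and 1.22 in the mock libraries (exact two-sided permutation p of 0.5).

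*AOP2* (AT4G03060, chromosome 4, 1351688 to 1354096, minus strand) encodes, in ecotypes such as Cvi, the dioxygenase that forms alkenyl glucosinolates. In Col-0, the ecotype used here, the annotation lists it as a transcribed pseudogene whose product is truncated and without function. Its transcript was still counted, at 34.9, 33.2 and 32.9 CPM in the treated libraries and 21.2, 20.5 and 21.2 CPM in the mock libraries. The SD was 1.06 CPM in treated and 0.432 CPM in mock libraries, and the groups lay far apart on that scale. Its log2 fold change of 0.68 (SE 0.074, interval 0.52 to 0.84), close to that of *FMOGS-OX3*, had an adjusted p of 0.000154 in edgeR, and it was called in all 17 settings. The ratio of *AOP2* to *CYP83A1* counts was 0.105, 0.0944 and 0.0946 in the treated libraries and 0.0776, 0.0720 and 0.0726 in the mock libraries, without overlap (exact two-sided permutation p of 0.1, the smallest possible).

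Close relatives lie beside these genes. *FMOGS-OX3* has *FMOGS-OX2* at 4005 bp (85.0% of aligned coding bases identical, longest shared run 49 bases) and *FMOGS-OX4* at 5885 bp (79.1%, 26 bases). *AOP2* has *AOP1* at 4170 bp, with 75.8% of aligned bases identical and a longest shared run of 21 bases. That value is from a local alignment of *AOP2* exons with the *AOP1* coding sequence, unlike the full-length coding alignments of the *FMOGS-OX* genes. *AOP1*, an oxygenase gene of the same cluster, had 6.44, 6.74 and 6.40 CPM in the treated libraries and 4.01, 3.79 and 4.50 CPM in the mock libraries. It rose with a log2 fold change of 0.65 and an adjusted p of 0.00981 in edgeR, and was the only partner in this list to be called. *AOP3* of the same cluster was not in the table of counts, so its level was not analysed here.

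AT2G25450, annotated as an oxygenase of the 2-oxoglutarate and Fe(II)-dependent superfamily, was the most counted gene of this group. It had 370.8, 418.6 and 369.7 CPM in the treated libraries and 268.8, 249.6 and 264.9 CPM in the mock libraries. The groups were separated by 101 CPM, with a log2 fold change of 0.57 and an adjusted p of 0.000693 in edgeR, and the fold of 1.479 was just short of the limit. For *FMOGS-OX2* the log2 fold change was 0.42 (adjusted p 0.0291), while for *FMOGS-OX5* it was 0.01. In all, 4 of the 5 partners in side-chain and branch reactions had an adjusted p of at most 0.05, and their median was 0.42.

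**Figure D2:**
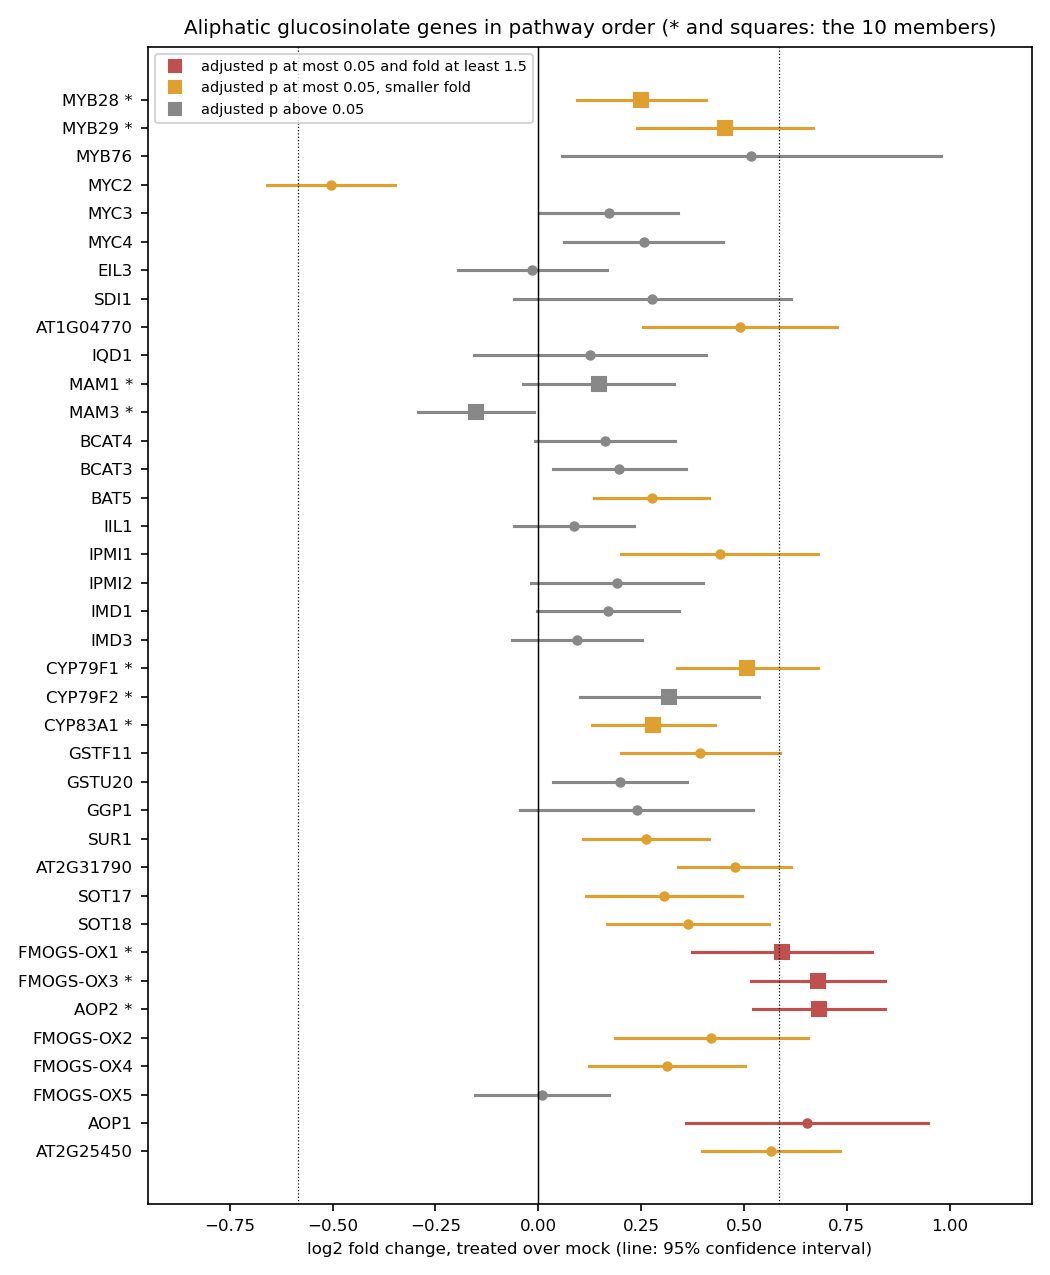
Log2 fold change of treated over mock (x axis) for the 10 genes (squares, marked by an asterisk) and their pathway partners (circles), in pathway order from regulators at the top to side-chain enzymes at the bottom; lines are 95% confidence intervals and dotted lines mark a fold of 1.5 either way. Red points passed both limits (3 members and *AOP1*), yellow points passed the adjusted p alone, and *MYC2* is the yellow point on the negative side at -0.50.

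Genes of different steps could also be compared inside single libraries. *MAM1* counts over *CYP79F1* counts were 1.40, 1.47 and 1.58 in the treated libraries and 1.83, 1.98 and 1.89 in the mock libraries. No treated library reached the lowest mock ratio, and the exact two-sided permutation p of 0.1 was the smallest possible. *MYB29* over *MYB28* counts, at 0.460, 0.444 and 0.386 in the treated libraries and 0.391, 0.367 and 0.364 in the mock libraries, overlapped (p of 0.2 in the exact permutation test). Of the 6 ratios computed, 4 did not overlap between the groups. The share over other gene pairs was not computed, and among single genes 28.2% of all tested did not overlap in either direction. The ratios restate the differences between fold changes given above and are no separate evidence. Adjusted over the 6 ratios, the exact permutation p was 0.15 for each of these 4, 0.24 for the MYB pair and 0.5 for the FMOGS-OX pair.

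**Figure D3:**
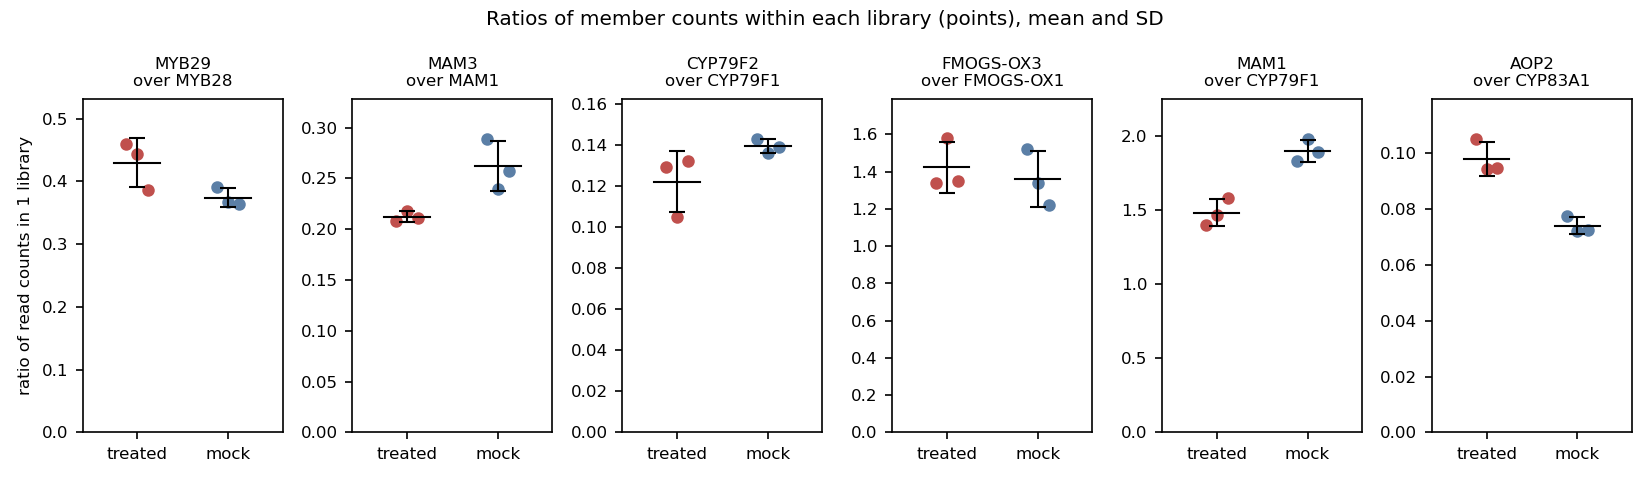
Ratio of the read counts of 2 members within a library (y axes from 0, no unit), with 1 point per library, treated in red on the left and mock in blue on the right; the long bar is the mean and the whiskers are the SD (n = 3 each). *MAM3* over *MAM1*, *CYP79F2* over *CYP79F1* and *MAM1* over *CYP79F1* are lower in every treated library, *AOP2* over *CYP83A1* is higher, and the other ratios overlap.

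Levels can be compared between genes only per length, and were therefore divided by the kilobases of exon. On this scale *CYP83A1* (180.3 ± 5.34 CPM per kb, SD, n = 3) and *MAM1* (170.8 ± 1.34) led in the treated libraries, followed by *CYP79F1* (72.3 ± 3.94). *MAM3* (40.6) and *MYB28* (40.5) came next and their libraries overlapped, as did those of *FMOGS-OX3* (28.0) and *FMOGS-OX1* (26.0). *MYB29* (19.9) stood between these and the pair of *AOP2* (16.1) and *CYP79F2* (14.3), whose libraries also overlapped. Per kilobase of exon, a regulator thus stood level with an enzyme gene of the elongation cycle.

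In the mock libraries *MAM1* (154.3 ± 16.5 CPM per kb) and *CYP83A1* (148.5 ± 4.85) overlapped at the top, and so did *CYP79F1* (50.8) and *MAM3* (45.1) below them. *MYB28* (34.1) was apart from its neighbours. The libraries of *FMOGS-OX1* (17.1) overlapped with those of *FMOGS-OX3* (17.4) and of *MYB29* (14.6), while *FMOGS-OX3* stood above *MYB29*. Lower down, *CYP79F2* (11.5) stood above *AOP2* (10.01). The exon length of *CYP79F1* includes a second, longer transcript, and per kilobase of coding sequence it had 146.3 CPM in the treated libraries and 102.8 in the mock libraries, against 17.9 and 14.3 for *CYP79F2*. Exon and coding lengths also differed unevenly in other members. They were 2284 and 1389 bases for *FMOGS-OX3*, 1734 and 1380 for *FMOGS-OX1*, 1979 and 1101 for *MYB28*, and 1829 and 1512 for *MAM3*. The order and overlaps above therefore hold for exon length only and can change with coding length.

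Genes of transport differed little, and those of supply had small differences of the same sign. The transporter genes *GTR1*, *GTR2* and *GTR3*, which move glucosinolates to sink tissue, had log2 fold changes of 0.11, 0.0004 and -0.09, with adjusted p-values of 0.350, 0.999 and 0.735 in edgeR, and none had an unadjusted p under 0.05 or was called by DESeq2 or limma. Sulfation needs the donor PAPS, and all 5 genes of its supply had positive values (median 0.24), of which 1 had an adjusted p of at most 0.05 and 4 an unadjusted p under 0.05 in edgeR, and none was called by edgeR, DESeq2 or limma. The gene that passed was *APS3*, an ATP sulfurylase, with 57.0, 55.5 and 56.7 CPM in the treated libraries and 41.2, 48.0 and 49.4 CPM in the mock libraries (0.28, adjusted p 0.0396). *APK1*, the kinase that forms PAPS, had 131.8, 175.6 and 122.7 CPM in the treated libraries and 119.1, 101.3 and 105.6 CPM in the mock libraries (0.40, adjusted p 0.0607), and treated 2 stood well above the rest. For *SAL1*, a phosphatase that removes the by-product of sulfation, the log2 fold change was 0.24 (adjusted p 0.0517).

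Breakdown genes included 2 of 10 that were called higher and none that was called lower by edgeR, DESeq2 or limma (at an unadjusted p under 0.05 in edgeR, 5 and 1). *BGLU30*, a beta-glucosidase, had 15.9, 16.1 and 13.4 CPM in the treated libraries and 5.29, 4.196 and 4.75 CPM in the mock libraries. That rise of 1.67 on the log2 scale (adjusted p 1.9e-05 in edgeR) was larger than for any of the 10 genes. *NSP5*, a nitrile-specifier protein that turns breakdown products to nitriles, had 147.0, 158.1 and 146.9 CPM in the treated libraries and 92.1, 91.3 and 105.3 CPM in the mock libraries, and it rose with a log2 fold change of 0.64 (adjusted p 0.000287). *ESM1*, a modifier that favours isothiocyanates, had 442.5, 442.4 and 473.0 CPM in the treated libraries and 308.8, 379.4 and 362.8 CPM in the mock libraries (0.37, adjusted p 0.0188, not called). The main leaf myrosinase gene *TGG1* had a log2 fold change of 0.07. *BGLU28* was not in the table and was not analysed here.

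The indole branch starts from tryptophan and shares late core enzymes with the aliphatic one. Its 17 genes had a median log2 fold change of 0.10, and none was called in either direction by edgeR, DESeq2 or limma. With the adjusted p alone, 2 were higher and 2 lower in edgeR, and 3 in each direction had an unadjusted p under 0.05. *MYB51*, an activator of indole glucosinolates, had 39.7, 39.0 and 35.1 CPM in the treated libraries and 56.8, 57.1 and 54.6 CPM in the mock libraries. All treated values were below all mock values, opposite to *MYB28* and *MYB29*. The log2 fold change was -0.57 (adjusted p 0.000448) and the ratio of 0.676 was just short of the limit, so that 5 of the 20 alternative settings called the gene lower. For *MYB34*, another activator of that branch, the log2 fold change was 0.34 (adjusted p 0.02), and for the methyltransferase gene *IGMT5* it was 0.27 (adjusted p 0.027).

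Other gene groups differed between the same libraries and are given beside these results. All 12 genes of a list of rapidly induced genes, touch and cold genes among them, had lower values in every treated library. By edgeR and DESeq2 11 were called lower (*CBF3* was the exception) and by limma all 12, with a median log2 fold change of -1.01. Their summed level was 703.9 to 781.1 CPM in the treated libraries and 1251 to 1385 CPM in the mock libraries. *WRKY40* of that list had 26.5, 34.8 and 28.2 CPM in the treated libraries and 76.4, 66.6 and 66.0 CPM in the mock libraries, and *CBF1* had the lowest log2 fold change of all genes tested, at -3.17. Among 13 jasmonate genes, *JAZ1* (-0.68, adjusted p 0.00018) and *JAZ5* (-0.60, adjusted p 0.00367) were called lower by edgeR and DESeq2, and limma called *JAZ1* alone. *JAZ5* was also no longer called without treated 2, mock 1 or mock 2. *VSP1* had 0.40 (adjusted p 0.00277, not called). The jasmonate list was mixed, with a median log2 fold change of 0.06 and none called higher by edgeR, DESeq2 or limma. With the adjusted p alone 3 of the 13 were higher and 2 lower in edgeR, and at an unadjusted p under 0.05 4 were higher and 3 lower. Of 11 clock genes, the morning genes *CCA1* (0.67), *LHY* (0.66), *RVE1* (0.71) and *RVE8* (0.66) were called higher by edgeR, DESeq2 and limma, and *RVE8* was no longer called without treated 2 or mock 3. None was called lower by these tools. In edgeR 5 of the 11 were lower at an unadjusted p under 0.05, of which *PRR7* (-0.26, adjusted p 0.0244), *TOC1* (-0.28, adjusted p 0.0439) and *LUX* (-0.33, adjusted p 0.03945) also passed the adjusted p. Whether handling of the plants differed between the groups was not tested, nor was the part of any of these gene groups in the glucosinolate results.

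Among the tissue markers checked, those of root hairs differed between the groups. All 5 were called higher by edgeR and limma and 3 by DESeq2, with a summed level of 20.4 to 23.8 CPM in the treated libraries and 7.02 to 10.99 CPM in the mock libraries. Root endodermis markers (4 of 6 in the table) summed to 23.5 to 24.2 CPM in the treated libraries and 23.8 to 27.3 CPM in the mock libraries, and leaf and photosynthesis markers (8 of 8) to 31440 to 46350 CPM and 31960 to 41820 CPM. None of the endodermis, leaf, vein (5 of 5) or guard cell (4 of 4) markers was called by edgeR, DESeq2 or limma, while an unadjusted p under 0.05 was found for 1 leaf marker (higher) and 1 vein marker (lower). Leaf and root markers were thus both present, as the label of whole plants says, and none of 4 flower and seed markers was in the table. The part of the root hair markers in the results was not tested.

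**Figure D4:**
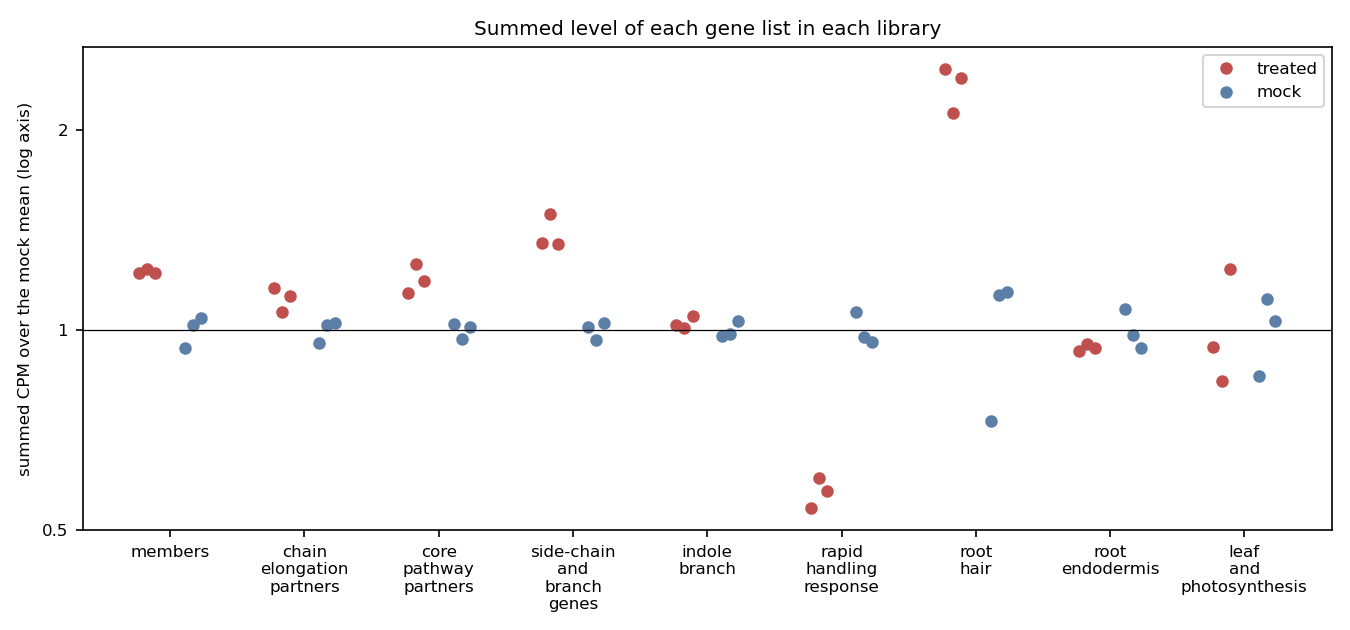
Summed TMM-normalized CPM of each gene list divided by its mean in the mock libraries (y axis, log scale), with 1 point per library, treated in red on the left and mock in blue on the right of each list. The 10 members (1283 to 1304 CPM in treated and 990.4 to 1100 CPM in mock libraries) lie above 1 in all treated libraries. So do the chain elongation, core pathway and side-chain genes. The rapidly induced genes (rapid handling response) lie below 1 there, the root hair markers reach the highest ratios, and the indole branch stays near 1.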

How the data were processed

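RNA-Seq libraries of whole seedlings were used, 3 treated and 3 mock, as grouped by the labels. Per the labels and methods, the authors used Trimmomatic 0.36 for trimming and HISAT2 2.1.0 for alignment to TAIR10, and the gene counts they deposited came from HTSeq-count. CPM columns were deposited as well. They equal each count over its library total within 3.64e-11 and were used only for that check. The deposited log2 fold changes, mean log2 CPM, p-values and FDR of the authors' edgeR comparison were not used. Whether counting used strand, and which annotation version, was not given in the sources used here. Every gene in the table reached a CPM of 1 in 2 or more libraries.

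Counts were fitted with edgeR 4.0.16 in R 4.3.3 on all 6 libraries, with TMM factors, filterByExpr (1 gene removed), the quasi-likelihood test, no covariate and Benjamini-Hochberg adjustment over 19615 genes. Intervals are at 95% and cover the fitted spread. The common biological coefficient of variation was 0.0792. DESeq2 1.42.0 and limma 3.58.1 (voom) were alternatives, with other factors, filters, thresholds, thinning to equal depth, a replicate block and each library left out. The steps were tested on simulated data. Same-numbered libraries deviated with correlations of -0.152, -0.243 and 0.119, so the numbers were not taken as pairs. Between libraries of different numbers the correlations ran from -0.285 (treated 3 with mock 1) to 0.368 (treated 2 with mock 1). A structure shared across the groups in another order was not tested. Coordinates, symbols and promoters came from the RefSeq annotation of TAIR10.1, read with Python 3.11.15, pandas 2.3.3 and Biopython 1.88. Figures were drawn with matplotlib 3.10.9. AT2G31790, AT2G25450 and AT1G04770 carry no symbol in these sources and are given by locus.

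The members, gene lists and rules were chosen with earlier results of these data known. Named genes are the 10 members, *MYB76*, *MYC2*, *SDI1*, AT1G04770, *EIL3*, and in each list of pathway or response genes those past both limits, up to 12, or the 3 smallest p-values where fewer than 3 passed. *FMOGS-OX5*, *TGG1*, *CBF3*, *PRR7*, *TOC1* and *LUX* were named after their values were seen. Promoters were printed for at most 3 members with a G-box or AC match.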

Additional observations from a re-analysis of the deposited data

How the results depend on the processing

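The 3 members called higher and 0 called lower stayed at those counts in 14 of the 20 alternatives. With the adjusted p alone 7 members were called higher, along with 1001 genes higher and 887 lower of all genes tested. With a fold of at least 2, 0 members were called, and 98 genes were higher and 90 lower. Testing against a fold of 1.2 called 4 members, with *CYP79F1* added. Leaving out single libraries gave 2 to 3 members called higher, 257 to 338 genes higher and 248 to 352 lower, and the member lost without treated 3, mock 1 or mock 2 was *FMOGS-OX1*. With a replicate block the same 3 members were called, with 282 genes higher and 265 lower, and in that pairing the adjusted p of *MYB28* was 0.135 and that of *CYP83A1* 0.0858. Over 55 named genes and 20 settings, 1037 of 1100 values stayed on the same side of the limits, 27 lost and 30 gained a call, and 6 turned in sign. The turned ones were *GTR2* (-0.0038 with library size alone, -0.0168 without treated 1, and -0.0645 to 0.0447 over the libraries left out), *EIL3* (0.013 without treated 1, and -0.0762 to 0.0405 over the libraries left out) and *GTR3* (0.044 without mock 2, and -0.1865 to 0.044 over the libraries left out). The cause was not tested. With 3 libraries in each group, the permutation test of a ratio could not pass 0.05.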

Other observations

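Outside the glucosinolate lists, the 5 genes whose profile over the 6 libraries was most like the mean standardized profile of the members were *DUT1* (Pearson r 0.9984), *AS1* (0.9983), AT3G21790 (0.9981), *XTH31* (0.996) and AT3G19480 (0.9951). These values describe 6 libraries in 2 groups, so a gene that differs between the groups can score high, and 474 genes exceeded 0.95. *XTH31*, a xyloglucan endotransglucosylase, had 50.2 ± 0.616 CPM in the treated and 25.5 ± 2.38 CPM in the mock libraries (SD, n = 3 each) and was called higher. *AS1*, a MYB-type regulator of leaf form, had 39.4 ± 0.839 CPM in the treated and 28.8 ± 2.12 CPM in the mock libraries.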
